A study of Mus musculus with 20 samples.

Results

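The vomeronasal type 2 receptor genes, symbol Vmn2r, were examined in H3K14ac, Setdb1 and Kap1 ChIP-Seq peaks of mouse liver. Members were the protein-coding genes of the GENCODE M21 basic annotation (GRCm38, mm10) on chromosomes 1 to 19 whose symbol starts with Vmn2r, which gave 121 of 20807 protein-coding genes. A further protein-coding Vmn2r gene lies outside these chromosomes and was not counted, and the 115 annotated Vmn2r pseudogenes are not members. Members Vmn2r-ps159 and Vmn2r-ps130 carry a pseudogene-style symbol although the annotation calls both protein-coding. Each gene was given a window of its body plus 5 kb on each side, and a peak counted for a gene when it shared at least 1 bp with that window. The merged windows cover 4.85 Mb, or 0.202% of the 2396 Mb of sequenced bases on chromosomes 1 to 19.

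According to the labels and methods, livers came from wild-type male C57BL/6 mice, young at 3 months and old at 21 months, with no transgene, deletion or treatment in either group. Chromatin was made from snap-frozen whole liver, so hepatocytes and the other liver cells are both in each library. The study merged 3 livers per age for H3K14ac and for Setdb1 and 2 per age for Kap1 by its labels and methods, although its text is not uniform on these numbers, and each mark and age has 1 peak list. With 1 pooled list per group the spread between livers is not known, no difference was tested, and every interval below covers counting error only.

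The receptors are class C G protein-coupled receptors with a large extracellular ligand-binding region, and they are made by sensory neurons in the basal layer of the vomeronasal organ, where they detect peptide and protein pheromones. Family C members, Vmn2r1 to Vmn2r7, are broadly co-expressed in these neurons with a receptor of the other families. Liver is not a tissue known for their expression, although it makes major urinary proteins, some of which act as ligands. H3K14ac is a histone mark found at active promoters and enhancers. Setdb1 is a methyltransferase for lysine 9 of histone H3, and Kap1 is the corepressor that brings it to sites bound by KRAB zinc finger proteins, many of them in retroelements.

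The following sites are shown first because a Setdb1 peak was called there in young and in old liver, the only such sites in the windows. Each line gives the young peak in GRCm38, on the strand of the gene, and capitals mark the bases that the old peak also covers. The Vmn2r10 site (chr5:108987005-108987204) lies downstream of the gene, the Vmn2r18 site (chr5:151560110-151560404) downstream of the gene, and the Vmn2r60 site (chr7:42159866-42160065) in an intron.
Vmn2r10: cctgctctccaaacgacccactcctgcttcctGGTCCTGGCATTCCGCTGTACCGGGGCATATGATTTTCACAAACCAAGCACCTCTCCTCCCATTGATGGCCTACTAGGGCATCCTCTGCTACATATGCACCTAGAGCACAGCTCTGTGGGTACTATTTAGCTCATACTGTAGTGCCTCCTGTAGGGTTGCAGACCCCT
Vmn2r18: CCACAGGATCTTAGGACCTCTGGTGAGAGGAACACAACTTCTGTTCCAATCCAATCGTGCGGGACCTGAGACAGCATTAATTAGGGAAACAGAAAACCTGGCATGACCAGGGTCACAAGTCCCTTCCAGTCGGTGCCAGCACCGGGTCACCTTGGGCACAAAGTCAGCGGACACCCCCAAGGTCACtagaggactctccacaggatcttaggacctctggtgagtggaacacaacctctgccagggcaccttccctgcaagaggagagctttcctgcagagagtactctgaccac
Vmn2r60: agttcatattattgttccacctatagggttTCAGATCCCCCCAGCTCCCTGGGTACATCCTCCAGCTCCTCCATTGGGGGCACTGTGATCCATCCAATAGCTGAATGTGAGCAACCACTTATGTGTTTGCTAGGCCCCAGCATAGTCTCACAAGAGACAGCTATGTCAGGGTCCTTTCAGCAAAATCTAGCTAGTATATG

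The GC content of these peaks was 53.5%, 54.9% and 48.0%, above the median of 39.5% for the young Setdb1 peaks in the windows. Repeats marked in the reference (soft-masked bases) made up 82.5%, 100% and 100% of them, against a mean of 48.6% for the young Setdb1 peaks in the windows. The Vmn2r18 site also overlapped a young Kap1 peak, and the Vmn2r60 site an old Kap1 peak.

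Stretches covered by H3K14ac and Kap1 peaks at both ages were found at 7 places, 5 of them at Vmn2r-ps159. They are shown because peaks of all 4 lists cover them. The first line is in a coding exon of Vmn2r-ps159 (chr4:156334535-156334799), with capitals for the common 225 bases. The second lies downstream of Vmn2r87 (chr10:130470409-130470644) within the processed pseudogene Gm18755, with capitals for the common 196 bases. The third is the central part of a common stretch of 328 bases in an intron of Vmn2r114 (chr17:23293826-23294125).
Vmn2r-ps159: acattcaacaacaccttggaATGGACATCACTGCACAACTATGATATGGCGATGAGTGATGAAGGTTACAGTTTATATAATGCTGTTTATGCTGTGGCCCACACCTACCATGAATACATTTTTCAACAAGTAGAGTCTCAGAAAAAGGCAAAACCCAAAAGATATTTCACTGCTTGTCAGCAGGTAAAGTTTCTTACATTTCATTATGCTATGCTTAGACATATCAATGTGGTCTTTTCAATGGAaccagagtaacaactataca
Vmn2r87: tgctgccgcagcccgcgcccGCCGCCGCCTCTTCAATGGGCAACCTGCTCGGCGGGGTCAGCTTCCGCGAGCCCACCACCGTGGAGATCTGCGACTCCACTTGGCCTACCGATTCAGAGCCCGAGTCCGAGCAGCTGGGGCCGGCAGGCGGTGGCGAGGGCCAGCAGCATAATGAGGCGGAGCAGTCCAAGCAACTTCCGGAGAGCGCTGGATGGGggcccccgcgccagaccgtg
Vmn2r114: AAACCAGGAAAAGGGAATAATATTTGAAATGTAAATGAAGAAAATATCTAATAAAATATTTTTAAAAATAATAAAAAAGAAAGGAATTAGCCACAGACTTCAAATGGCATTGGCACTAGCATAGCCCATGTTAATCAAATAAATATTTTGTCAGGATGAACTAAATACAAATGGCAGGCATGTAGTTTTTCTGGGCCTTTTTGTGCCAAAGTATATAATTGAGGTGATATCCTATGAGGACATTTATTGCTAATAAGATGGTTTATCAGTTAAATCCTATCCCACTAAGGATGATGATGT

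The shown sequences differ widely in base composition, with 37.0% GC at Vmn2r-ps159, 70.3% at Vmn2r87 and 30.3% at Vmn2r114.

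Vmn2r84 and Vmn2r86, receptor genes of 1 cluster on chromosome 10 with Vmn2r85 between them, each had a young Kap1 peak shortly before the start site, at positions -300 and -246 relative to the start. The peaks are chr10:130394557-130394706 and chr10:130456210-130456381, and are shown on the strand of the genes. Capitals mark the bases that differ within the 141 bases that aligned. The ends outside this alignment are in lower case although they also differ.
Vmn2r84: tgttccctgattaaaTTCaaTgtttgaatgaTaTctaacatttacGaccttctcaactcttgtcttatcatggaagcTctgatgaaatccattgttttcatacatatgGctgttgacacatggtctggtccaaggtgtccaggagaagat
Vmn2r86: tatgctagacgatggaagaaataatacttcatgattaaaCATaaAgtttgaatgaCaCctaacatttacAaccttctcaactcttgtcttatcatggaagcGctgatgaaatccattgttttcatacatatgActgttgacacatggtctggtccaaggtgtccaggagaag

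These 2 peaks aligned over 141 bases with 132 identical (93.6%) and 9 mismatches, without a gap. Among the 276 young Kap1 peaks in the windows, 21 (7.61%, 95% Wilson interval 5.03 to 11.4%) had a close match among the other young Kap1 peaks of the windows, taken as an alignment that spans no less than 80% of the peak with 80% or more identical bases, and 19 of these matched a peak at a different member. In the other lists a close match to any peak of the same list was found for 2 of 86 young H3K14ac and 3 of 51 old H3K14ac peaks. It was found for 4 of 121 young Setdb1, 2 of 37 old Setdb1 and 3 of 156 old Kap1 peaks. Those that matched a peak at a different member numbered 4 for young Setdb1, 2 for old Setdb1 and 0 for both H3K14ac lists and old Kap1.

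How far the gene windows can be read depends on copies of the same sequence elsewhere, because the study kept only uniquely aligned reads. Of the 50-base words (50-mers) in the member windows, 67.7% occur once in the genome, against 89.5% of those on chromosomes 1 to 19. Windows of the type 1 receptor genes, Vmn1r, had 69.9%, olfactory receptor genes, Olfr, 87.8%, and zinc finger genes, Zfp, 86.1%. Every position of the member windows was counted. The values for these families and for chromosomes 1 to 19 were estimated on random positions, 291830 of them for the chromosomes. Of the 50-mers in the windows that are not unique, 25.9% have all their copies within the Vmn2r windows. Single members range from 0% unique at Vmn2r46 and Vmn2r47 to 98.8% at Vmn2r105, with a median of 77.3%, and 30 members are under 50%. The part of sequence copies in the counts below was not tested beyond the values given beside them.

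Across the 6 lists, 727 peaks met the windows, and 95 of the 121 members (78.5%, 70.4 to 84.9%) had at least 1, against 81.3% of all genes. H3K14ac had 86 young and 51 old peaks, Setdb1 121 and 37, and Kap1 276 and 156. Peaks of all 6 lists were found at 8 members (6.61%, 3.39 to 12.5%), against 2.32% of all genes, namely Vmn2r3, Vmn2r7, Vmn2r18, Vmn2r24, Vmn2r57, Vmn2r60, Vmn2r86 and Vmn2r87. Both shares are per gene and not per base, and members are longer than most genes, as given below. The 26 members without a peak had a median of 17.7% unique 50-mers, with a range of 0 to 92.9%, and the 95 with a peak a median of 79.9%. The number of peaks per kb of window and the unique share had a Spearman rho of 0.39 over the 121 members, which share libraries and, in part, sequence.

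**Figure D1:**
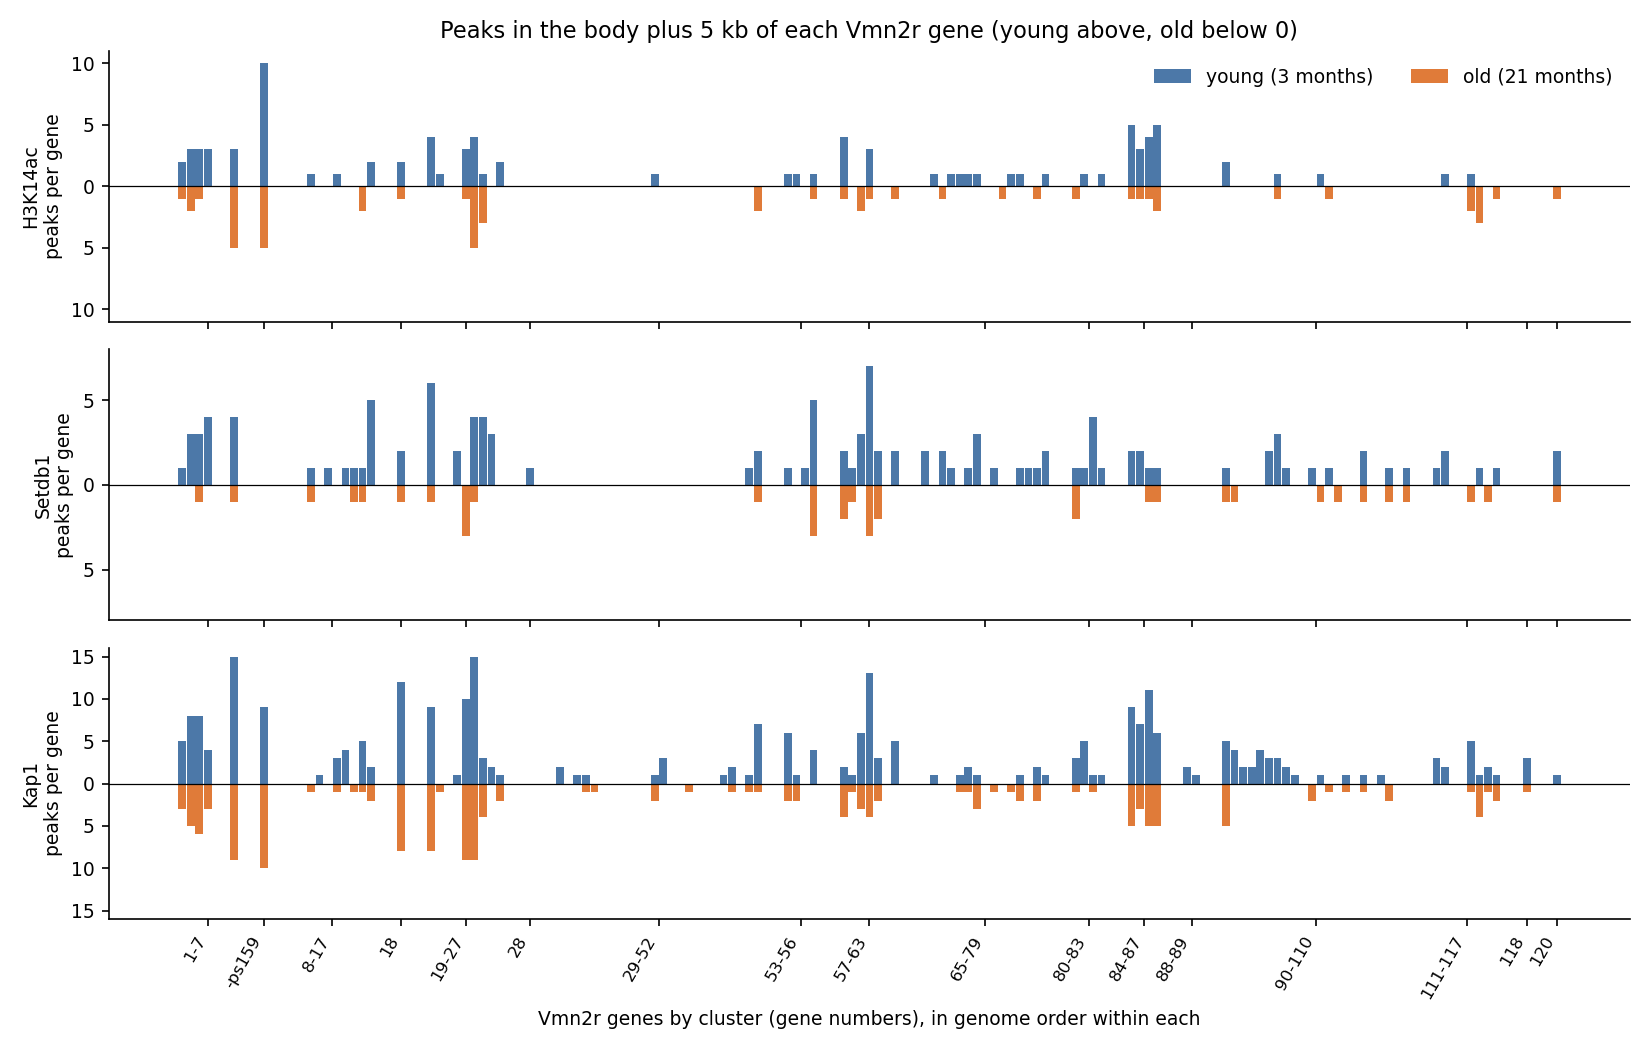
Number of peaks per Vmn2r gene window (vertical axis) for H3K14ac, Setdb1 and Kap1, with young counts as bars above 0 and old counts as bars below 0, for the 121 genes in cluster order. Counts concentrate in a few clusters, and the 24 genes Vmn2r29 to Vmn2r52 hold 34 peaks in all.

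The first comparison asked how many receptor genes carry a peak, beside all protein-coding genes. Kap1 was the protein with the widest coverage, at 75 of 121 members (62%, 53.1 to 70.1%) in young liver against 35.2% of all genes, and at 56 (46.3%, 37.6 to 55.1%) in old liver against 19.8%. Setdb1 was found at 61 members (50.4%, 41.6 to 59.2%) in young liver against 44.9% of all genes, and at 28 (23.1%, 16.5 to 31.4%) in old liver against 18.5%. H3K14ac was found at 41 members (33.9%, 26.1 to 42.7%) in young liver against 33.6% of all genes. In old liver the H3K14ac count was 30 members (24.8%, 18.0 to 33.2%) against 42.0%. Both Kap1 intervals thus lie above the share over all genes, the old H3K14ac interval lies below it, and the other 3 include it. Members are longer than most genes, with a median body of 27146 bp against 17629 bp, and the density given further on is per base.

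Start sites were then counted alone. An H3K14ac peak within 1 kb of an annotated start was found at 2 members (1.65%, 0.454 to 5.83%) in young liver and at 3 (2.48%, 0.847 to 7.04%) in old liver, against 19% and 27.6% of all genes. Kap1 peaks were there at 15 members (12.4%, 7.66 to 19.4%) in young liver against 5.48% of all genes, and at 10 (8.26%, 4.55 to 14.5%) in old liver against 2.36%. Setdb1 peaks were there at 7 members (5.79%, 2.83 to 11.5%) in young and 1 (0.826%, 0.146 to 4.53%) in old liver, against 4.05% and 1.20%. Receptor start sites were thus rarely marked by H3K14ac and more often by Kap1 than the start sites of all genes. Both Setdb1 intervals include the share over all genes. Of the Kap1 peaks in the windows, 6.52% in young and 6.41% in old liver lay within 1 kb of a start. Such bases make up 5.55% of the windows, and both intervals include this value. Within the windows, no preference of Kap1 for start sites was thus seen. In young liver H3K14ac was at 5.29% of Vmn1r and 3.90% of Olfr starts, Kap1 at 18.8% and 15.2%, and Setdb1 at 26 of 208 Vmn1r and 116 of 1128 Olfr starts (4.05% of all genes), and the differences between families were not tested.

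**Figure D2:**
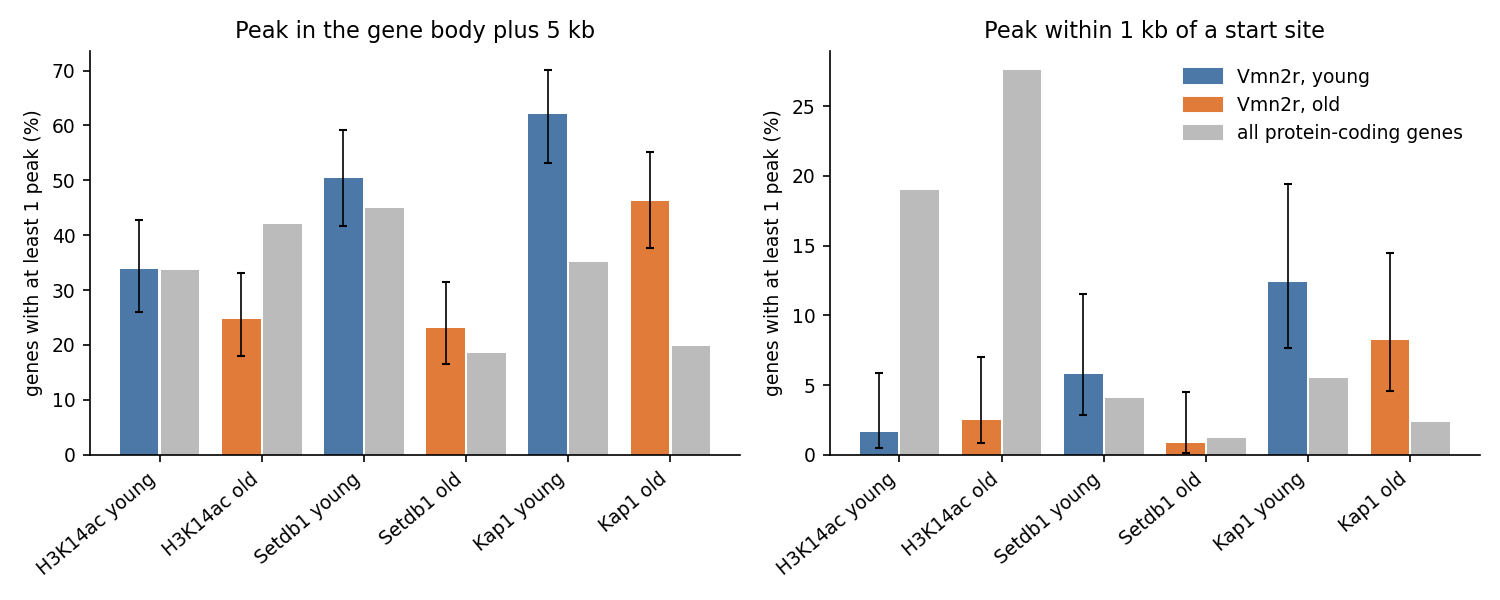
Percentage of genes with at least 1 peak in the gene body plus 5 kb (left) and within 1 kb of a start site (right) for the 6 peak lists. Coloured bars are the 121 Vmn2r genes with 95% Wilson intervals and grey bars all 20807 protein-coding genes, and Vmn2r bars exceed grey most for Kap1 and lie far below for H3K14ac at start sites.

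A start-site peak of any list was present at 29 members (24%, 17.2 to 32.3%), against 43% of all genes, and at 21 of the 29 it came from a single list. For H3K14ac the young peaks were at Vmn2r-ps159 and Vmn2r86 and the old peaks at Vmn2r7, Vmn2r25 and Vmn2r74, with no member in both lists, against 12% of all genes. The young H3K14ac peak at Vmn2r86 (chr10:130456233-130456732) overlapped the young Kap1 peak printed above. The old Vmn2r7 peak is centred 316 bp from an alternative start inside the gene. At Vmn2r25, the old H3K14ac peak (chr6:123852505-123853004) overlapped a young Setdb1 peak (chr6:123852743-123852942). Young Setdb1 peaks were also at the starts of Vmn2r2, Vmn2r24, Vmn2r56, Vmn2r80, Vmn2r84 and Vmn2r105, and the old one was at Vmn2r124.

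Kap1 start-site peaks in both ages were found at Vmn2r18, Vmn2r53, Vmn2r90 and Vmn2r-ps159. The young and old peaks at these 4 starts did not overlap. At Vmn2r90, for instance, the young peak was centred at -684 and the old one at 856 relative to the start. Kap1 near a start at both ages was thus found at 3.31% of members (1.29 to 8.19%), against 0.980% of all genes, and lists of the 2 ages seldom overlap anywhere, with 7.63% of young Kap1 peaks on chromosomes 1 to 19 meeting an old one.

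Promoters from the RefSeq table for GRCm38.p6, 250 bases before to 50 after the start, were matched by symbol to 114 members. In 113 of these the promoter was inside the gene window, and 7 (6.19%) met a peak of any list, against 18.5% of the 31396 promoters on chromosomes 1 to 19. The 3 with the most bases in a peak are shown on the strand of the gene, with capitals for the bases in the peak. They are Vmn2r16 (chr5:109330131-109330430, old Kap1), Vmn2r24 (chr6:123778721-123779020, young Setdb1) and Vmn2r60 (chr7:42116221-42116520, young Kap1), with 150, 211 and 102 of the 300 bases covered.
Vmn2r16: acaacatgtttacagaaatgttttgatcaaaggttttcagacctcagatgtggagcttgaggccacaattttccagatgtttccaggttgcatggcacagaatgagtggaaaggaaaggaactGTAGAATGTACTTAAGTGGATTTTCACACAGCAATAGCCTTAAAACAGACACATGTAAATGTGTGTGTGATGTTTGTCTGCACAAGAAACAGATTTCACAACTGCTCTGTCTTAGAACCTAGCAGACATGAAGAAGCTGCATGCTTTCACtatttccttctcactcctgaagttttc
Vmn2r24: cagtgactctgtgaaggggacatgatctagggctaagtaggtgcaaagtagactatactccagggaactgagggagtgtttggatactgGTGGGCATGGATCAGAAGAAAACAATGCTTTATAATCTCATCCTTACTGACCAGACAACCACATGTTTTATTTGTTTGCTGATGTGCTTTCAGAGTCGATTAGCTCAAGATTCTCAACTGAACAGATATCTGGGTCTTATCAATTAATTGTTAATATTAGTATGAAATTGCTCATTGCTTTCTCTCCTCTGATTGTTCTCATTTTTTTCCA
Vmn2r60: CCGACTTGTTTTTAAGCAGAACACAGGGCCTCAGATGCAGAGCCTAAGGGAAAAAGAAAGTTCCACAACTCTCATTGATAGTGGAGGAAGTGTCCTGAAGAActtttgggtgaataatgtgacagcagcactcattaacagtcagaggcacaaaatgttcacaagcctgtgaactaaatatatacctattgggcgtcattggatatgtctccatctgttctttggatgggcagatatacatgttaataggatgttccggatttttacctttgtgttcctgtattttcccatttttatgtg

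Receptor promoters are poor in GC, with a median of 38.0% against 52.7% over the 32851 promoters of the table. They also hold few CG dinucleotides, with a median of 1 per promoter against 7. The letters TATAAA, sought on both strands, were found in 26 of the 114 promoters (22.8%) and in 13.6% of all promoters of the same length.

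The second comparison set the density of peaks in the windows beside that of chromosomes 1 to 19, which takes out the length of the genes. Kap1 was 2.90 times as dense in young liver (exact Poisson interval 2.57 to 3.26) and 3.58 times in old liver (3.04 to 4.19), from 276 and 155 peaks by midpoint. Young H3K14ac was 2.20 times as dense (1.75 to 2.72, 84 peaks) and old H3K14ac 1.25 times (0.933 to 1.65, 51 peaks). Setdb1 was 1.19 times as dense in young (0.989 to 1.43, 119 peaks) and 1.30 times in old liver (0.911 to 1.80, 36 peaks). The intervals of Kap1 at both ages and of young H3K14ac lie above 1, and the other 3 include it. This reading depends on the area used, since per Mb of unique 50-mers those 3 also lie above 1, with old H3K14ac at 1.66 (1.23 to 2.18), young Setdb1 at 1.58 (1.31 to 1.89) and old Setdb1 at 1.72 (1.20 to 2.38). With peaks of a list within 1000 bp merged first, old H3K14ac was 1.39 (1.03 to 1.84). Old Setdb1 was 1.38 (1.02 to 1.84) with a 10 kb flank and 1.25 (1.01 to 1.52) over whole cluster spans. Young H3K14ac was 1.94 (1.53 to 2.44) without Vmn2r-ps159 and 1.85 (1.44 to 2.34) without Vmn2r84 to Vmn2r87. For Kap1 these values were 2.81 and 2.61 in young and 3.36 and 3.24 in old liver. These genes were set aside after their values were seen.

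The same density was also taken for Vmn1r, Olfr and Zfp genes. Kap1 density over that of chromosomes 1 to 19 was 4.34 young and 4.40 old at Vmn1r, 2.24 and 2.0 at Olfr, and 1.80 and 2.39 at Zfp genes. H3K14ac was 1.83 young and 1.21 old at Vmn1r, 1.40 and 0.724 at Olfr, and 3.08 and 2.98 at Zfp. Setdb1 was 1.48 young and 0.891 old at Vmn1r, 1.26 and 1.88 at Olfr, and 0.975 and 0.933 at Zfp. Kap1 was thus denser than over chromosomes 1 to 19 in all 4 families, Zfp genes included, with the highest values at Vmn1r, and the families were not compared by a test.

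**Figure D3:**
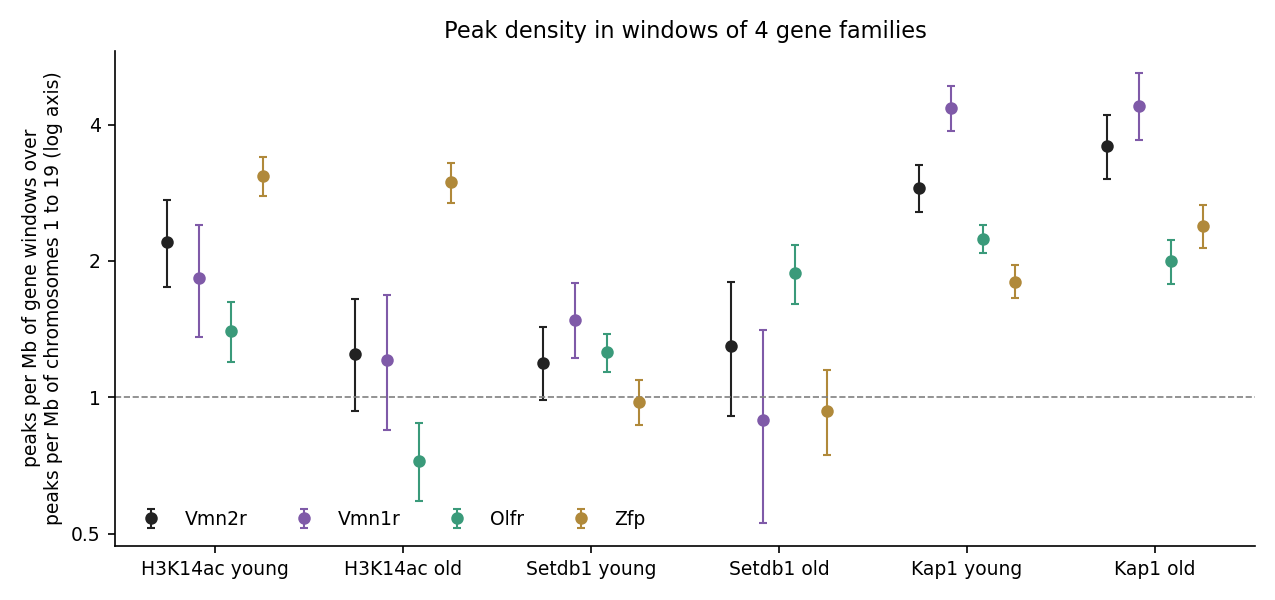
Peaks per Mb in the windows of Vmn2r, Vmn1r, Olfr and Zfp genes divided by peaks per Mb of chromosomes 1 to 19 (log axis), for the 6 peak lists. Bars are exact Poisson intervals on the count, the dashed line is a ratio of 1, and the Vmn2r points for Kap1 sit at 2.90 and 3.58.

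Density was far from even among the 17 clusters, in which members lie less than 1 Mb from the next. The isolated gene Vmn2r-ps159 (chr4:156331103-156339499) had 34 peaks in a window of 0.0184 Mb, or 1848 per Mb. The 4 genes Vmn2r84 to Vmn2r87 (chr10:130377925-130497396) had 81 peaks, or 718 per Mb. Vmn2r18 on chromosome 5 (chr5:151561190-151606021) had 26 peaks, or 474 per Mb. These 3 clusters are small, with 6 genes between them.
Vmn2r19 to Vmn2r27 on chromosome 6 had 265 peaks per Mb over 9 genes, and Vmn2r1 to Vmn2r7 on chromosome 3 had 262 over 7. The large arrays were sparser, with 75.7 per Mb at Vmn2r65 to Vmn2r79 and 69.6 at Vmn2r90 to Vmn2r110 (22 genes, including Vmn2r124). Some small clusters were also sparse, with 37.5 per Mb at Vmn2r28 (1 peak), 71.1 at Vmn2r88 to Vmn2r89, 89.2 at Vmn2r118 and 102 at Vmn2r120. Vmn2r29 to Vmn2r52, 24 genes in 2.95 Mb of chromosome 7 (chr7:7231327-10176573), had 45.6 per Mb. In this last cluster 18.2% of the 50-mers are unique, and 13 of its 24 genes had no peak. Per Mb of unique sequence its density was 251, against 81.7 for Vmn2r90 to Vmn2r110. Over the 17 clusters, density and unique share had a Spearman rho of -0.16.

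**Figure D4:**
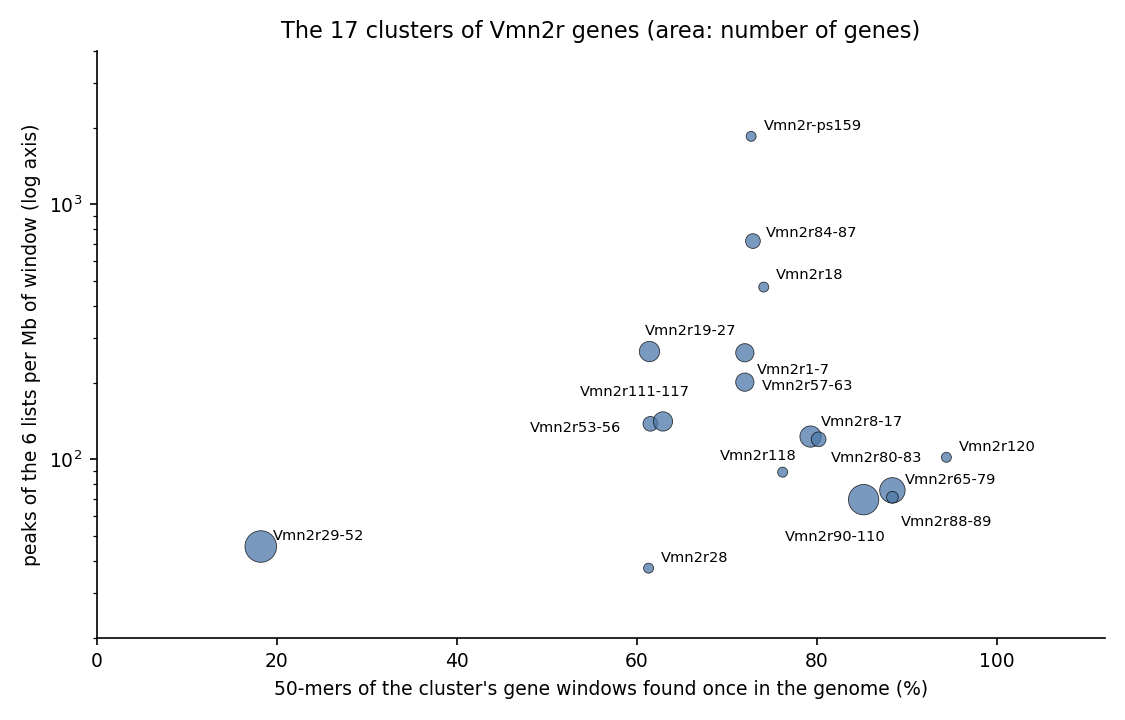
Peaks of the 6 lists per Mb of gene window (log axis) against the percentage of 50-mers found once in the genome, with 1 point per cluster and area by number of genes. Vmn2r29 to Vmn2r52 stand alone at 18.2% unique, and Vmn2r-ps159, the highest point at 1848 per Mb, lies at 72.7%.

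The family C receptors on chromosome 3 included some of the members with the most peaks. Vmn2r7, the longest member at 159722 bp, had 3 young and 5 old H3K14ac peaks, 4 and 1 Setdb1 peaks, and 15 and 9 Kap1 peaks. Vmn2r3 had 3 and 1 H3K14ac, 3 and 1 Setdb1, and 8 and 6 Kap1 peaks, in a gene of 32495 bp. Vmn2r2 had 3 and 2 H3K14ac, 3 and 0 Setdb1, and 8 and 5 Kap1 peaks. In these 3 genes Kap1 peaks outnumbered those of H3K14ac and of Setdb1 at both ages. On chromosomes 1 to 19 the young and old lists hold 47084 and 21390 Kap1 peaks, 18885 and 20120 H3K14ac peaks, and 49271 and 13678 Setdb1 peaks. Vmn2r1 and Vmn2r4 had 12 and 14 peaks in all, and Vmn2r5 and Vmn2r6, with 32.6% and 56.2% unique 50-mers, had none.

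Of the receptors with a known ligand, 4 were looked at here, and each had between 2 and 7 peaks, where the median member had 3. Vmn2r26, which responds to peptides of major histocompatibility complex proteins, had 3 young Setdb1 and 2 young Kap1 peaks and none in old liver. Vmn2r116, the receptor of the male tear peptide Esp1, had 1 old Setdb1 peak and 2 young and 1 old Kap1 peaks, and no H3K14ac peak. Vmn2r81 had 1 young H3K14ac, 1 young Setdb1 and 5 young Kap1 peaks, of which none had an old counterpart in the window. Vmn2r88, a receptor for haemoglobin, had 2 young Kap1 peaks and no other.

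The largest total was at Vmn2r24, with 38 peaks in a gene of 46034 bp. It had 4 young and 5 old H3K14ac peaks, 4 and 1 Setdb1 peaks, and 15 and 9 Kap1 peaks. Its neighbour Vmn2r23 had 3 and 1 H3K14ac, 0 and 3 Setdb1, and 10 and 9 Kap1 peaks, and was 1 of 7 members with more old than young Setdb1 peaks. Vmn2r19, in the same cluster, had 4 and 0, 6 and 1, and 9 and 8. Vmn2r60, on chromosome 7, had 3 and 1, 7 and 3, and 13 and 4, and Vmn2r18 had 2 and 1, 2 and 1, and 12 and 8, in the same order of marks. These 5 receptors had more Kap1 than H3K14ac or Setdb1 peaks in each age, from lists of the different lengths given above.

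Vmn2r-ps159 differed from all of these in having no Setdb1 peak. It had 10 young and 5 old H3K14ac peaks and 9 young and 10 old Kap1 peaks, and all 5 old H3K14ac peaks overlapped a young one. Young Kap1 peaks there ranged from 151 to 1893 bp, where 150 bp is the commonest width of the Kap1 lists. Of its window, 72.7% of 50-mers are unique. On the Vmn2r84 to Vmn2r87 cluster, young H3K14ac counts per gene were 5, 3, 4 and 5 and old counts 1, 1, 1 and 2. Kap1 counts there were 9, 7, 11 and 6 in young and 5, 3, 5 and 5 in old liver.

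The third comparison was between ages. The old to young ratio of H3K14ac peaks was 0.593 (0.411 to 0.848, from 86 and 51 peaks), whereas over chromosomes 1 to 19 it was 1.07 (1.04 to 1.09). Over 1 kb from any start site, where 76 of the young and 44 of the old receptor peaks lie, the ratio was 0.579 (0.390 to 0.850) in the windows and 0.934 on chromosomes 1 to 19 (0.911 to 0.956). Olfactory receptor windows had 0.566 (0.442 to 0.721), Vmn1r windows 0.736 (an interval that includes 1), and Zfp windows 1.03 (0.894 to 1.19). Fewer H3K14ac peaks in old liver were thus counted at Vmn2r and Olfr genes while the count over these chromosomes was slightly higher.

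The old Setdb1 and Kap1 lists were shorter, in the windows and over chromosomes 1 to 19. For Setdb1 the ratio was 0.306 in the windows (0.206 to 0.445) and 0.278 on chromosomes 1 to 19 (0.272 to 0.283). For Kap1 it was 0.565 (0.461 to 0.690) and 0.454 (0.447 to 0.462). The Kap1 interval starts at the upper end of that for chromosomes 1 to 19, and the Setdb1 interval includes the chromosome value. The same number of livers was merged at each age, read depth is not known from the files, and its part in the ratios was not tested.

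**Figure D5:**
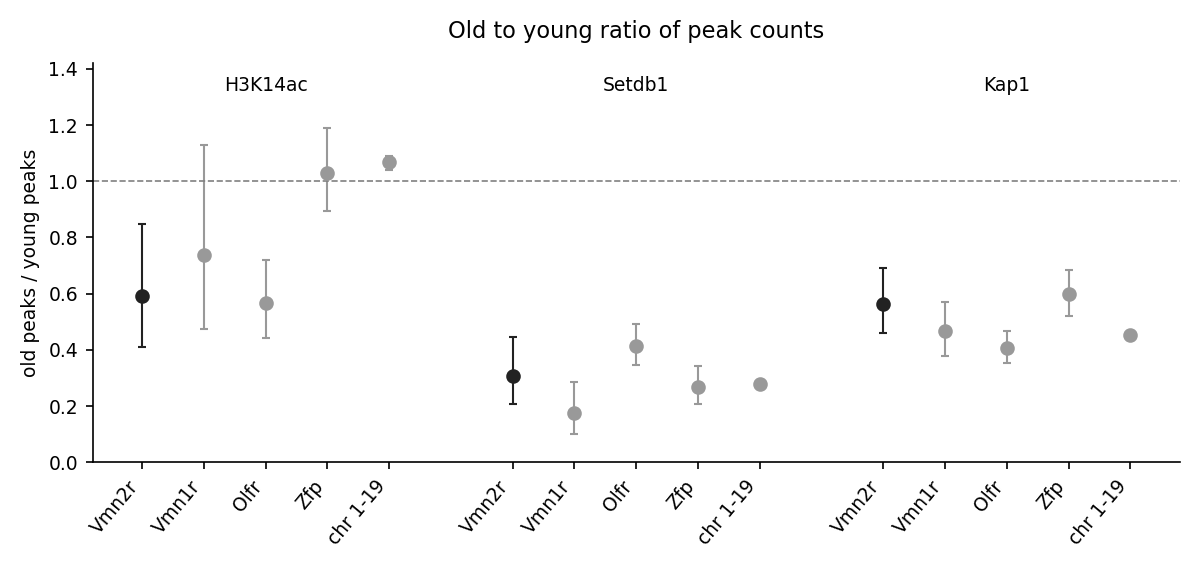
Old to young ratio of the number of peaks, with 95% intervals for counting error, for H3K14ac, Setdb1 and Kap1 in Vmn2r windows (black) and in Vmn1r, Olfr and Zfp windows and chromosomes 1 to 19 (grey). For H3K14ac the Vmn2r interval ends at 0.848, below the 1.07 of chromosomes 1 to 19, and for Setdb1 it spans the chromosome value.

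By gene, 35 members had more young than old H3K14ac peaks, 16 had more old, 2 had as many, and 68 had none. For Setdb1 these numbers were 49, 7, 11 and 54, and for Kap1 55, 20, 10 and 36. Of the 17 clusters, 11 had fewer H3K14ac peaks in old liver, 3 had more and 3 as many. The cluster Vmn2r111 to Vmn2r117 went the other way, with 2 young and 6 old H3K14ac peaks, 3 of the old ones at Vmn2r115. Setdb1 peaks were fewer in old liver in 14 clusters, and Kap1 peaks in 14, with more old than young Kap1 peaks in 2, Vmn2r65 to Vmn2r79 (8 and 11) and Vmn2r-ps159 (9 and 10).

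Few individual sites were called at both ages. Of the young peaks in the windows, 12 of 86 H3K14ac (14%, 8.17 to 22.8%), 3 of 121 Setdb1 (2.48%, 0.847 to 7.04%) and 27 of 276 Kap1 peaks (9.78%, 6.81 to 13.9%) overlapped an old peak of the same mark by 1 bp or more. The Kap1 share depends on this rule, at 16.3% when peaks up to 500 bp apart counted, 5.43% when at least 50% of the young peak had to be covered, and 5.06% for peaks of the commonest width. Over chromosomes 1 to 19 the shares were 20.8%, 0.869% and 7.63%. Counted by gene, such a site was in the window of 7 members for H3K14ac (5.79%, 2.83 to 11.5%) against 13.9% of all genes, of 3 for Setdb1 (2.48%) against 0.918%, and of 14 for Kap1 (11.6%, 7.02 to 18.5%) against 3.22%. By gene the H3K14ac share was below that of all genes and the Kap1 share above it, but per peak both intervals include the share over chromosomes 1 to 19, and Kap1 peaks are denser in the windows than over these chromosomes. For H3K14ac the per-peak reading depends on the setting, since its interval lies below 20.8% for gene bodies alone (4.59 to 19.8%), with a 10 kb flank (6.86 to 19.4%) and over whole cluster spans (7.59 to 16.8%). The Kap1 reading depends on it too. Its interval lies above 7.63% with a 10 kb flank (7.66 to 14.1%) and over whole cluster spans (8.75 to 13.5%), and includes it for gene bodies alone (6.50 to 14.8%). The Setdb1 share rests on the 3 sites shown at the outset.

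Sites kept at both ages were gathered in few genes. Of the 12 H3K14ac sites, 5 were at Vmn2r-ps159, 4 in the cluster Vmn2r84 to Vmn2r87, and 1 each at Vmn2r18, Vmn2r95 and Vmn2r114. Of the 27 Kap1 sites, 7 were at Vmn2r-ps159, 4 at Vmn2r86, 3 at Vmn2r24, and 2 each at Vmn2r7, Vmn2r85 and Vmn2r87. Without Vmn2r-ps159, 7 of 76 H3K14ac (9.21%, 4.53 to 17.8%, below the 20.8% of chromosomes 1 to 19) and 20 of 267 Kap1 peaks (7.49%) had an old partner. Without Vmn2r84 to Vmn2r87 as well, 3 of 59 (5.08%, 1.74 to 13.9%) and 11 of 234 (4.70%, 2.64 to 8.22%) had one.

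The fourth comparison asked which marks met at the same site. Of young H3K14ac peaks in the windows, 26 of 86 (30.2%, 21.5 to 40.6%) overlapped a young Kap1 peak, against 11.9% on chromosomes 1 to 19. In old liver 13 of 51 did (25.5%, 15.5 to 38.9%), against 6.46%. Of these, 8 young and 5 old sites were at Vmn2r-ps159. Without that gene the shares were 23.7% (15.5 to 34.4%) and 17.4% (9.09 to 30.7%), and without Vmn2r84 to Vmn2r87 as well they were 16.9% (9.48 to 28.5%) and 12.2% (5.32 to 25.5%). These last intervals include the shares over chromosomes 1 to 19, and these genes were set aside after their values were seen. Kap1 peaks were 2.90 times as dense in the windows as on those chromosomes in young and 3.58 times in old liver. The part of this density in the shared sites was not tested.

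Setdb1 and Kap1, which act in a common complex, shared few sites. Of Setdb1 peaks in the windows, 7 of 121 (5.79%, 2.83 to 11.5%) overlapped a Kap1 peak in young and 4 of 37 (10.8%, 4.29 to 24.7%) in old liver, against 2.08% and 1.82% on chromosomes 1 to 19. Of Kap1 peaks, 7 of 276 (2.54%, 1.23 to 5.14%) and 4 of 156 (2.56%, 1.00 to 6.41%) overlapped a Setdb1 peak, against 2.19% and 1.18%. The Setdb1 shares thus lie above those of the chromosomes while the Kap1 intervals include them, and Kap1 itself is 2.90 and 3.58 times as dense in the windows. The young sites were at Vmn2r4, Vmn2r16, Vmn2r18, Vmn2r19, Vmn2r24, Vmn2r52 and Vmn2r86, and the old ones at Vmn2r57, Vmn2r60, Vmn2r80 and Vmn2r108. Setdb1 overlapped H3K14ac of the same age at Vmn2r19, Vmn2r27 and Vmn2r112 in young and at Vmn2r87 in old liver, at Vmn2r27 with a Setdb1 peak just outside the window.

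The place of the peaks within the genes was set beside the make-up of the windows. Introns held from 43 of 86 peaks (young H3K14ac) to 26 of 37 (70.3%, old Setdb1), and 57.8% of window bases. Coding exons held 9 of 86 young H3K14ac peaks (95% interval 5.60 to 18.7%) and 18 of 276 young Kap1 peaks (6.52%), against 5.86% of bases. They held 7.05% of old Kap1 peaks, 3.92% of old H3K14ac peaks, and 3.31% of young and 2.70% of old Setdb1 peaks. The interval of each list includes 5.86%. Receptor peaks were poorer in GC than the peaks of the whole lists, with a median of 41.5% against 46.8% for young H3K14ac and 43.3% against 47.0% for young Kap1, while the windows themselves have 37.4%. Repeats marked in the reference made up 42.4% of young Kap1 peak bases on average, against 29.5% over the whole list and 47.3% of the windows. At the midpoints of the peaks, 93.5% of young Kap1 peaks had a unique 50-mer, against 96.9% in the whole list. For young H3K14ac it was 93.0% against 98.9%, and for young Setdb1 94.2% against 98.9%. The old lists had 100% against 99.2% for H3K14ac, 100% against 98.7% for Setdb1 and 96.2% against 96.4% for Kap1.

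Genes that work with the receptors were taken from a list of 24 signalling and specification genes. Young and old windows with a peak numbered 4 and 5 for H3K14ac, 10 and 8 for Setdb1, and 12 and 7 for Kap1. Over all genes the shares of windows with a peak are 33.6% and 42.0% for H3K14ac, 44.9% and 18.5% for Setdb1, and 35.2% and 19.8% for Kap1, and those of start sites with H3K14ac are 19% and 27.6%. The lists below are small and were not tested against these shares. H3K14ac lay at a start site of 2 of these, Gnb1, a G protein beta subunit, and B2m, the partner of class I proteins, both of them used in many tissues. No peak of any list was found at Trpc2, the cation channel of vomeronasal neurons, at Gng8, at Itpr3 or at Tfap2e, a transcription factor of the basal neurons. Gnao1, the G protein alpha subunit to which the receptors couple, had 8 young and 2 old Setdb1 peaks, 1 old Kap1 peak and no H3K14ac peak. Of 15 other class C receptors, 2 had H3K14ac at a start site in young and 2 in old liver. Of the 22 Mup genes, which encode major urinary proteins and include many close copies, 2 had H3K14ac peaks in the window, with 11 young and 12 old at Mup5 and 3 and 3 at Mup6. Of the 15 Esp genes, 1 had H3K14ac at a start site in young liver and none in old liver.

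The label of the tissue was checked with H3K14ac peaks within 1 kb of start sites. Such peaks were present at 6 of 12 hepatocyte markers, Apoa1, Apoa2, Apob, Apoc3, Ttr and Tat (at Ttr in old and at Tat in young liver only), and the other 6, Alb among them, had none. By age this was 5 of 12 in young and 5 of 12 in old liver, against 19% and 27.6% of all genes. Hnf4a and Cyp2e1 had H3K14ac elsewhere in their windows. Of 6 markers of vomeronasal neurons, Gnai2, which is also expressed in many other tissues, was the 1 with such a peak, at both ages. Neither marker list was tested against the shares of all genes. Trpc2, Gnao1, Gng8 and Tfap2e had no H3K14ac peak in their windows, and Omp had 1 in old liver away from the start site.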

How the data were processed

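Peak lists of H3K14ac, Setdb1 and Kap1 ChIP-Seq from young and old mouse liver were used, 6 in all. The authors mapped reads to mm10 with BWA, discarded duplicates and reads without a unique position, combined the livers within each age, and ran PeakSeq with input as the control. The deposited files hold peak positions (chromosome, start and end), with no height, count or p-value, so read depth per sample is not known from them. The 4 sequential ChIP samples were not analysed here.

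Positions were read with Python 3.11.15 and numpy 2.4.6, sequences with pysam 0.24.0, and intervals (95% Wilson for shares, exact Poisson for densities, exact binomial for ratios) came from scipy 1.17.1. They cover counting error only. Genes were from GENCODE M21. Peaks were assigned by at least 1 bp in the gene body plus 5 kb, and densities used peak midpoints. The genome was searched for copies of each 50-mer of the windows, of those at random positions elsewhere and of those at peak midpoints. Counts were compared with bedtools 2.31.1 (9 of 9 equal), and the scripts were tested on simulated data (5 of 5 sets recovered). The members and lists were chosen with earlier results of these data known. Named members were the 10 with most peaks, those with a start-site peak, and those with overlapping peaks of both ages or of different marks. The family C receptors and some receptors with known ligands were also named. Lists of names beyond these, and single members given for an extreme or a cluster, were named after their values were seen. Alternatives changed the flank, overlap rule, peak width, merging, area and unit of density. Leaving out Vmn2r-ps159 or Vmn2r84 to Vmn2r87 was added after seeing the data.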

Additional observations from a re-analysis of the deposited data

How the results depend on the processing

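No paired analysis was possible because each list pools the livers of its age and no test was made, and for the same reason no liver could be left out. Of 132 alternative values over 18 results, 13 moved. The numbers of members with a peak, judged by a change of 1.5 times, stayed within it in 36 of 36 alternatives. The others were judged by the counting interval of the reported value, and 40 of 48 densities, 22 of 24 old to young ratios and 21 of 24 shares with an old partner stayed within it. With whole cluster spans in place of gene windows, density over that of chromosomes 1 to 19 was 1.68 for young and 0.916 for old H3K14ac, the latter on the other side of 1, and 2.44 for young Kap1. Per Mb of unique 50-mers it was 2.91 and 1.66 for H3K14ac, 1.58 and 1.72 for Setdb1, and 3.83 and 4.73 for Kap1, with all 6 intervals above 1, whereas those of old H3K14ac and of both Setdb1 lists include 1 per Mb of window. Divided by the ratio over chromosomes 1 to 19, the old to young ratio was 1.10 for Setdb1 and 1.24 for Kap1. The share of young Kap1 peaks with an old partner was 16.3% when peaks up to 500 bp apart counted as partners, 5.43% with at least 50% of the young peak covered, and 5.06% for peaks of the commonest width. The cause of these shifts was not tested. In alternatives chosen after seeing the data, the old to young ratio of H3K14ac was 0.605 without Vmn2r-ps159 and 0.667 without Vmn2r84 to Vmn2r87.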
